A study of Mus musculus with 16 samples.

Results

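The basement membrane collagens and laminins followed here are 10 mouse genes: Col4a1, Col4a2, Col15a1, Col18a1, Lama2, Lama4, Lamb1, Lamc1, Nid1 and Hspg2. They were chosen by name, and every probe set whose annotation gave exactly 1 gene symbol equal to one of these names was taken, which made 18 of the 22626 probe sets that are not controls. The genes are 10 of the 12393 that the array names in this way. RNA of the left ventricle, the main pumping chamber of the heart, was measured on 16 Affymetrix mouse 430A arrays, 1 per C57BL/6J mouse aged 12 to 14 weeks. Males after transverse aortic constriction (male TAC), females after the same operation (female TAC), males after a sham operation (male sham) and females after a sham operation (female sham) gave 4 arrays each. Constriction narrows the aortic arch, so that the ventricle pumps against a higher pressure and enlarges. RNA was taken 14 days after surgery, and the arrays keep the numbers of their labels (male TAC 1, 2, 4 and 5, female TAC 1, 2, 3 and 5, and 1 to 4 in each sham group). The labels name no genotype other than the strain and give no measure of how strong each constriction was.

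The basement membrane is a thin sheet of matrix that surrounds each cardiac muscle cell and lies under the endothelium of the vessels. Laminins, trimers of an alpha, a beta and a gamma chain, form a network on the cell surface through integrins and dystroglycan. Type IV collagen forms a separate network that gives the sheet its strength. Nidogen binds laminin and type IV collagen to each other, and perlecan, the product of Hspg2, is a large proteoglycan with heparan sulfate chains that binds growth factors.

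Col4a1 and Col4a2, the chains of the common form of type IV collagen, lie head to head on chromosome 8 and are transcribed in opposite directions. In RefSeq's table of promoter windows (build GRCm38.p6, 250 bases before to 50 after each start), the Col4a1 window lay at chr8:11312777-11313076 on the minus strand and the Col4a2 window at chr8:11312555-11312854 on the plus strand. These windows shared 78 bases, chr8:11312777-11312854, so that the start regions of both genes are in part the same DNA. The stretches shown here precede Nid1 (chr13:13437352-13437601, plus strand) and Lamb1 (chr12:31265043-31265145, plus strand), which rose after constriction and whose windows hold bases outside any protein-coding gene. The annotation also places the end of a pseudogene, Gm7426, in the Nid1 stretch and that of a long noncoding RNA, Gm32899, in the Lamb1 stretch. Capitals mark CCAAT, which reads ATTGG on the opposite strand, and GGGCGG, the core of the GC box.
Nid1: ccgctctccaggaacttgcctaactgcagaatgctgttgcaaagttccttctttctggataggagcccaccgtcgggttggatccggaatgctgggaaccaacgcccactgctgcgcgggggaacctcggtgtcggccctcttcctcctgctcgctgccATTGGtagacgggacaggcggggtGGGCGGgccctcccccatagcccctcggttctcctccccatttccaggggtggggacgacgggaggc
Lamb1: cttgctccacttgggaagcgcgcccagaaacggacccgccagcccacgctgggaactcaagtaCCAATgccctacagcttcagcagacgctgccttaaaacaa

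The Nid1 stretch held 1 of each motif, without overlap, and 64.4% G and C. The Lamb1 stretch held 1 CCAAT, no GGGCGG, and 58.3% G and C. A window was found for 8 of the 10 genes, 9 windows in all, and Lama4 and Lamc1 were not matched. A gene was counted where any of its windows held the motif, while the shares given beside it count single windows. In the 250 bases before the start, GGGCGG or its complement CCGCCC stood in 5 of these 8 genes (Col4a2, Col18a1, Lamb1, Nid1 and Hspg2), against 32.7% of 32851 windows in the table. CCAAT or ATTGG also stood in 5 of 8 (Col4a1, Col4a2, Col18a1, Lamb1 and Nid1), against 33.8% of windows. TATAAA, a form of the TATA box, or TTTATA stood in 0 of 8, against 12.4% of windows. These are letter matches in a fixed window, and no binding was measured.

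Signals below are the deposited intensities, and a log2 fold change is a difference of group means of log2(signal + 16), which understates the change of dim probe sets. A gene rose or fell where its adjusted p was below 0.05 in limma, a linear model fitted to 13576 probe sets past a limit on dim signals. Of the 18 probe sets, 16 passed that limit, and the leading probe set of a gene is the one with the highest mean. One probe set's level is not set against another's. In bulk tissue, fewer cells of a type and less RNA per cell cannot be told apart.

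The type IV collagen pair, Col15a1 and Nid1 rose after constriction in both sexes, by 1.59-fold to 2.21-fold on their leading probe sets. In males, 6 of the 16 tested probe sets rose, 1 each of Col4a1, Col4a2, Col15a1, Lamb1, Nid1 and Hspg2, and 0 fell. Of all tested probe sets, 8.07% rose and 9.77% fell in males. In females, 5 rose, from Col4a1 (both of its probe sets), Col4a2, Col15a1 and Nid1, and 1, the second probe set of Nid1, fell. Of all tested probe sets, 6.46% rose and 8.6% fell in females. Over both sexes, 8 probe sets of 6 genes rose and 1 fell, against 12.9% and 15.8% of all tested probe sets. The median log2 fold change over the 16 probe sets was 0.55 in males and 0.26 in females, while that over all tested probe sets was -0.03 in each sex. The leading probe sets of Col18a1, Lama2, Lama4, Lamc1 and Hspg2 did not pass the threshold in either sex or over both.

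RNA measures moved with the groups as well. Control probe sets at the ends of the Gapdh transcript gave a 3'/5' signal ratio of 1.004 to 1.16 in male TAC and 0.837 to 0.921 in male sham, and 0.958 to 1.03 in female TAC and 0.785 to 0.918 in female sham. The groups did not overlap, so this ratio and the operation cannot be told apart. With the ratio as a covariate, 0 of the 16 probe sets passed in males, 0 in females and 1 over both sexes, while 2.93%, 3.67% and 4.71% of all probe sets passed in limma. That one was the leading Nid1 probe set, at a log2 fold change of 0.95 (limma adjusted p = 0.0349). Over both sexes Col15a1 was then at 0.78 and the second Hspg2 probe set at 0.85, against 0.85 and 0.77 without the covariate, so these calls were lost with values of similar size. Col4a1 was at 0.51, Col4a2 at 0.32 and the leading Lamb1 probe set at 0.07, against 1.05, 0.71 and 0.73 without it. The log2 signal of the 18S control was 9.06 to 13.2 in male TAC and 12.6 to 13.8 in male sham. In females it was 9.311 to 10.731 in TAC and 10.738 to 12.794 in sham. Its male groups overlapped and its female groups did not, so in females this signal and the operation cannot be told apart. With the 18S signal as a covariate, 7.37%, 11.3% and 14.1% of all probe sets passed in males, in females and over both sexes. Of the 16, 3 passed in males, 5 in females and 5 over both sexes. In males these were the rises of Col4a1 and Nid1 and a fall of the second Lama4 probe set, which was not called without the covariate. The other male calls were lost, with Col4a2 at 0.47, Col15a1 at 0.65, Lamb1 (1424113_at) at 0.53 and Hspg2 (1418670_s_at) at 0.70 (limma adjusted p = 0.225, 0.13, 0.347 and 0.166). In females and over both sexes, Col4a1, Col4a2, Col15a1 and Nid1 rose and the second Lama4 probe set fell. Among other measures, the median signal of an array was 189.7 to 200.8 in female TAC and 206.4 to 221.2 in female sham, and 192.2 to 220.4 in male TAC and 209.5 to 222.3 in male sham. The actin 3'/5' ratio was 1.46 to 1.93 in female TAC and 1.33 to 1.40 in female sham, and 1.39 to 1.98 in male TAC and 1.34 to 1.59 in male sham. Both separated the female groups and overlapped in males. The running numbers in the array titles also follow the groups in blocks, and the labels do not say what they count. An effect of order, if there was one, cannot be told apart from the operation or the sex.

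**Figure D1:**
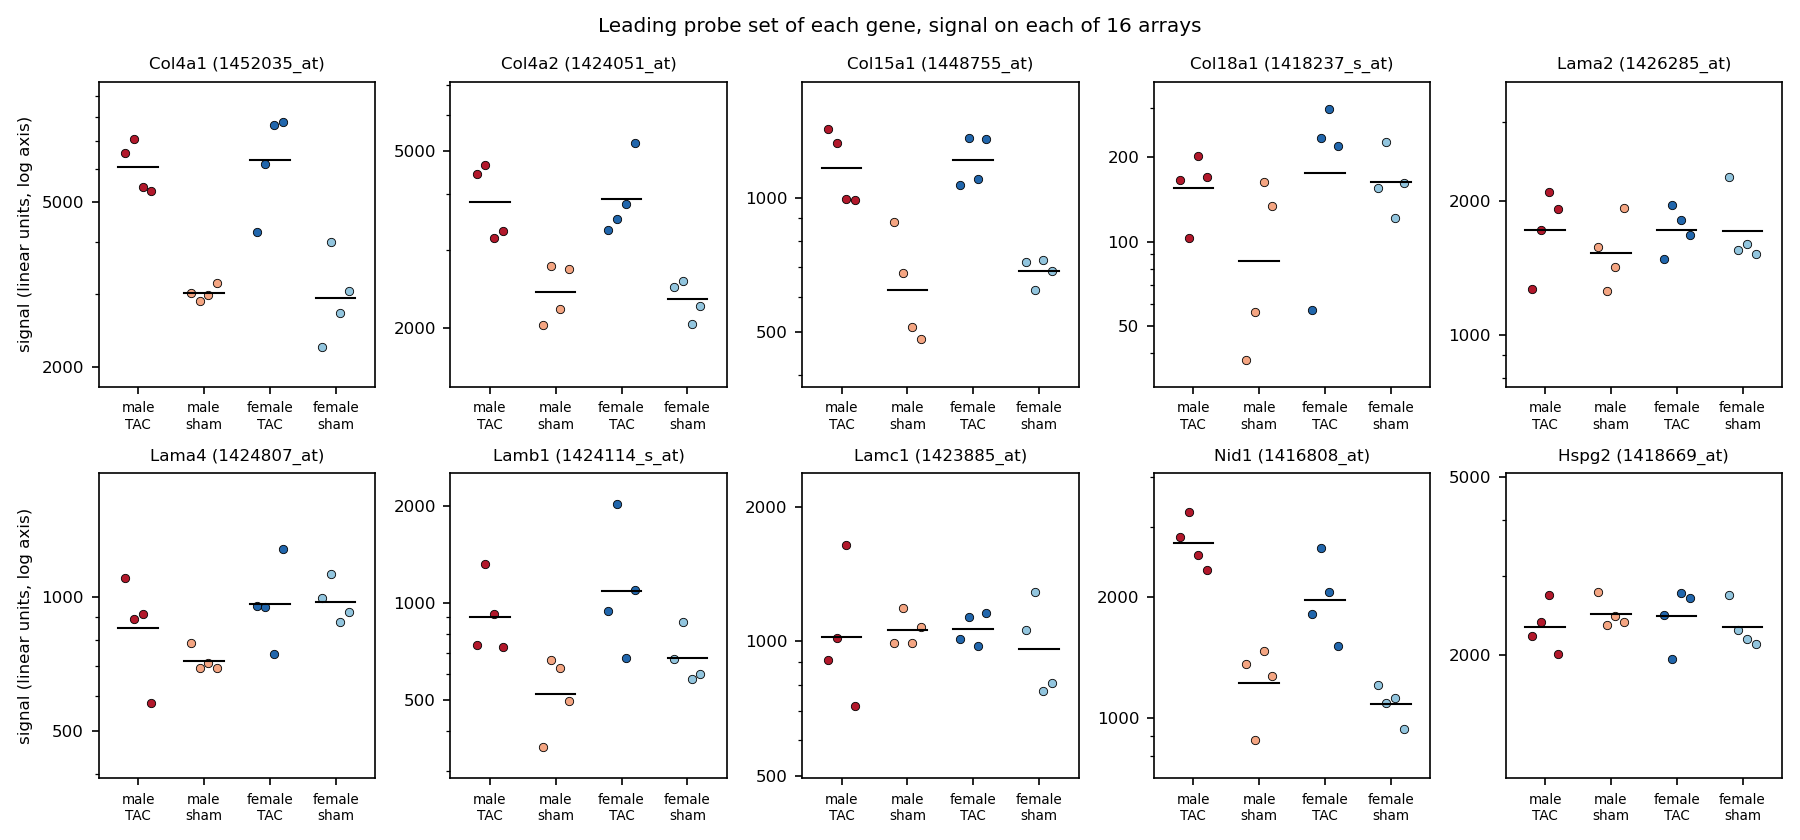
Signal of the leading probe set of each gene on every array (log axis, linear intensity units), with the groups in the order male TAC, male sham, female TAC, female sham; points are arrays and lines are group means of log2(signal + 16), turned back to signal. Col4a1, Col4a2, Col15a1 and Nid1 lie higher on every TAC array than on any sham array of the same sex, while the groups of Lama2, Lamc1 and Hspg2 overlap.

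Col4a1 (1452035_at) had signals of 6537, 7089, 5441 and 5310 in male TAC, against 3013, 2881, 2970 and 3191 in male sham. In female TAC its signals were 4227, 6183, 7668 and 7803, against 2234, 3999, 2694 and 3052 in female sham. Every TAC array was above every sham array of its sex, and the narrowest gap was that between female TAC 1 and female sham 2. Col4a1 averaged 6094 ± 862 in male TAC and 3014 ± 131 in male sham, and 6470 ± 1666 in female TAC and 2995 ± 749 in female sham (SD, n = 4 each). The rise was 2.003-fold in males (log2 1.002 ± 0.176 SE, limma adjusted p = 0.000488) and 2.14-fold in females (log2 1.10 ± 0.18, limma adjusted p = 0.00028). The second Col4a1 probe set, 1426348_at, had a log2 fold change of 0.44 in males (limma adjusted p = 0.103) and rose by 0.57 in females (adjusted p = 0.0387). That female call was lost in 10 of 20 alternative settings.

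Col4a2 (1424051_at) had signals of 4428, 4649, 3190 and 3301 in male TAC, against 2033, 2751, 2210 and 2718 in male sham. Female TAC gave 3325, 3517, 3802 and 5190, against 2467, 2554, 2045 and 2242 in female sham. The groups did not overlap in either sex. The rise was 1.59-fold in males (log2 0.67 ± 0.15, limma adjusted p = 0.00435) and 1.68-fold in females (log2 0.75 ± 0.15, limma adjusted p = 0.00227).

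Col15a1 and Col18a1 encode collagens with heparan or chondroitin sulfate chains that sit at the outer face of basement membranes, and the end of the Col18a1 product is endostatin, an inhibitor of vessel growth. Col15a1 (1448755_at) had signals of 1426, 1327, 994 and 991 in male TAC, against 881, 678, 513 and 482 in male sham. Female TAC gave 1067, 1364, 1103 and 1352, against 720, 622, 726 and 685 in female sham. No groups overlapped within a sex, and male sham 1 came nearest to the male TAC arrays. Col15a1 rose 1.86-fold in males (log2 0.90 ± 0.17, limma adjusted p = 0.0012) and 1.75-fold in females (log2 0.81 ± 0.17, limma adjusted p = 0.00335).

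Col18a1 was dim, and its probe sets passed the threshold in neither sex. The leading probe set, 1418237_s_at, ranged over 103 to 202 in male TAC and 37.9 to 164 in male sham, and over 56.8 to 298 in female TAC and 121 to 227 in female sham. Its log2 fold change was 0.76 in males (95% interval -0.16 to 1.69, limma adjusted p = 0.265) and 0.10 in females (-0.82 to 1.03, limma adjusted p = 0.915). The other, 1426955_at, lay below the limit on dim signals and was fitted without that limit. It had 507, 188, 128 and 188 in male TAC against 22.9, 30.8, 98.1 and 123 in male sham, and 62.3, 199, 150 and 386 in female TAC against 28.1, 45.0, 116 and 24.2 in female sham. The male groups were separate and the female groups overlapped, with log2 fold changes of 1.69 ± 0.56 in males (limma adjusted p = 0.0625) and 1.58 ± 0.56 in females (limma adjusted p = 0.0932). Averaged over the sexes it was higher by 1.63 (adjusted p = 0.00579 in the fit without the limit).

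**Figure D2:**
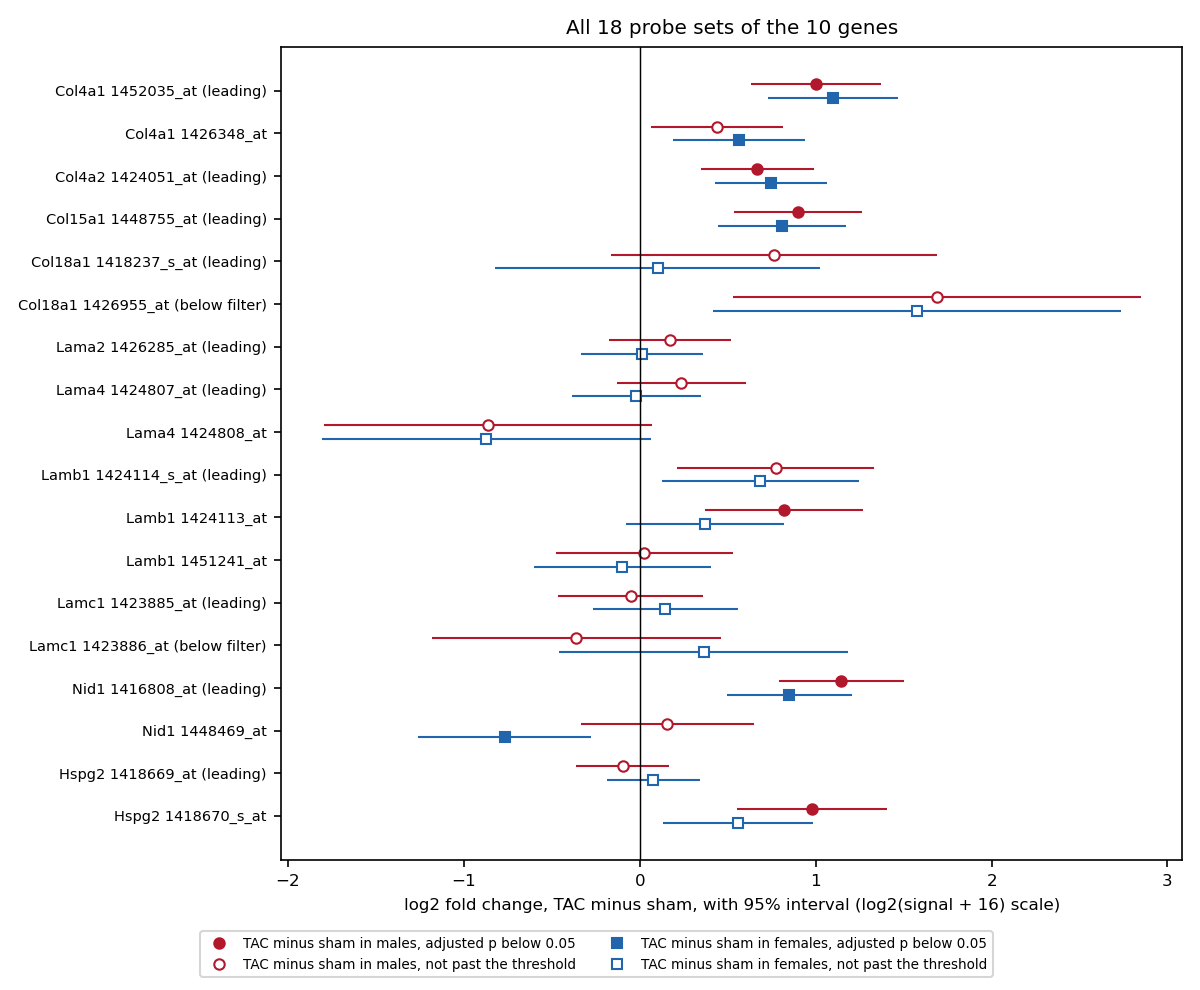
Log2 fold change, TAC minus sham, of all 18 probe sets in males (circles) and females (squares), with 95% intervals; filled symbols passed adjusted p below 0.05 in limma. The leading probe sets of Col4a1, Col4a2, Col15a1 and Nid1 are filled in both sexes, and the second Nid1 probe set lies on the other side of 0 in females.

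Of the 4 laminin chains, Lamb1 was the one whose leading probe set rose over both sexes. Lama2 encodes the alpha chain of the laminin around muscle cells, whose loss causes congenital muscular dystrophy. Lama2 (1426285_at) ranged over 1270 to 2097 in male TAC and 1254 to 1929 in male sham, and over 1481 to 1952 in female TAC and 1519 to 2259 in female sham. The groups overlapped in both sexes. Its log2 fold change was 0.17 in males (95% interval -0.18 to 0.52, limma adjusted p = 0.537) and 0.01 in females (-0.34 to 0.36, limma adjusted p = 0.979).

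Lama4 encodes the alpha chain of endothelial laminin. Its leading probe set, 1424807_at, had 1101, 891, 916 and 579 in male TAC against 788, 692, 709 and 691 in male sham, and 952, 948, 744 and 1284 in female TAC against 992, 1127, 879 and 925 in female sham. Male TAC 5 was below every male sham array while the other male TAC arrays were above them, and the female groups overlapped. The log2 fold changes were 0.24 in males (limma adjusted p = 0.404) and -0.02 in females (limma adjusted p = 0.963). The second probe set, 1424808_at, had 149, 150, 258 and 17.1 in male TAC against 133, 264, 204 and 281 in male sham, and 190, 169, 141 and 112 in female TAC against 327, 303, 218 and 316 in female sham. Every female TAC array was below every female sham array, as for 11.6% of all tested probe sets. Averaged over the sexes it fell by 0.87 on the log2 scale (limma adjusted p = 0.0452), a call lost in 16 of 26 alternative settings, while neither sex alone passed (adjusted p = 0.205 in males and 0.213 in females). With the 18S covariate it fell by 2.46 in males and by 1.80 in females (limma adjusted p = 0.00289 and 0.0037), and with only the groups compared in the fit it fell by 0.87 in females (adjusted p = 0.0262).

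Lamb1 encodes a beta chain shared by several laminins. Its leading probe set, 1424114_s_at, had 741, 1324, 923 and 726 in male TAC against 356, 663, 629 and 495 in male sham, and 941, 2025, 673 and 1096 in female TAC against 669, 872, 578 and 602 in female sham. Male groups were separate, and female TAC 3 fell among the female sham arrays. The log2 fold change was 0.77 ± 0.27 in males (limma adjusted p = 0.0518, below 0.05 in 8 of 21 alternative settings) and 0.69 ± 0.27 in females (limma adjusted p = 0.0939), and over both sexes the probe set rose by 0.73 ± 0.19 (adjusted p = 0.00628). A second probe set, 1424113_at, rose by 0.82 in males (limma adjusted p = 0.0113) and by 0.60 over both sexes (adjusted p = 0.00572), with 0.37 in females (adjusted p = 0.282). In males it had 313, 327, 361 and 209 in TAC against 146, 161, 135 and 210 in sham, so that male TAC 5 lay just under male sham 4. The remaining Lamb1 probe set, 1451241_at, was at 0.03 in males and -0.10 in females, with limma adjusted p of 0.96 and 0.844.

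Lamc1, the gamma chain of most laminins, showed no change past the threshold. On 1423885_at it ranged over 716 to 1646 in male TAC and 992 to 1187 in male sham, and over 976 to 1156 in female TAC and 776 to 1290 in female sham. Male TAC alone spanned the whole male sham range. Its log2 fold change was -0.05 in males (95% interval -0.46 to 0.36, limma adjusted p = 0.895) and 0.15 in females (-0.27 to 0.56, limma adjusted p = 0.689). The other Lamc1 probe set, 1423886_at, was below the limit on dim signals, at 18.6 to 145 over the 16 arrays.

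Nid1, nidogen, had the largest male log2 fold change of the 10 leading probe sets. On 1416808_at it had 2834, 3270, 2543 and 2340 in male TAC against 1359, 881, 1468 and 1270 in male sham. In females it had 1819, 2652, 2057 and 1509 in TAC against 1210, 1088, 1120 and 937 in sham. The groups were separate in both sexes. Nid1 rose 2.21-fold in males (log2 1.15 ± 0.17, limma adjusted p = 9.84e-05) and 1.80-fold in females (log2 0.85 ± 0.17, limma adjusted p = 0.00194).

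The second Nid1 probe set, 1448469_at, did not follow the leading one. It had 348, 372, 348 and 510 in male TAC against 540, 234, 355 and 324 in male sham, and 155, 321, 228 and 289 in female TAC against 422, 483, 397 and 386 in female sham. The male groups overlapped, and every female TAC array was below every female sham array. It fell by 0.77 on the log2 scale in females (limma adjusted p = 0.0317), a call lost in 10 of 20 alternative settings, while its value in males was 0.16 (adjusted p = 0.71). Where on the transcript each probe set lies is not given in the sources used here, so the cause of such splits between probe sets of a gene was not tested.

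Hspg2, perlecan, also gave different values on its probe sets. The leading one, 1418669_at, ranged over 2006 to 2716 in male TAC and 2331 to 2757 in male sham, and over 1956 to 2745 in female TAC and 2111 to 2726 in female sham. Its log2 fold change was -0.10 in males (95% interval -0.36 to 0.17, limma adjusted p = 0.662) and 0.08 in females (-0.19 to 0.34, limma adjusted p = 0.749). The other, 1418670_s_at, had 986, 997, 1354 and 736 in male TAC against 624, 615, 365 and 436 in male sham, and 801, 754, 898 and 1162 in female TAC against 521, 527, 601 and 785 in female sham. The male groups were separate, and in females only female TAC 2 lay below the highest sham array. It rose by 0.98 ± 0.20 in males (limma adjusted p = 0.00214) and had 0.56 ± 0.20 in females (adjusted p = 0.0725). The ending _s_at is the manufacturer's mark for probes that can match more than 1 transcript. The leading probe sets of Col18a1 and Lamb1 carry the same ending.

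**Figure D3:**
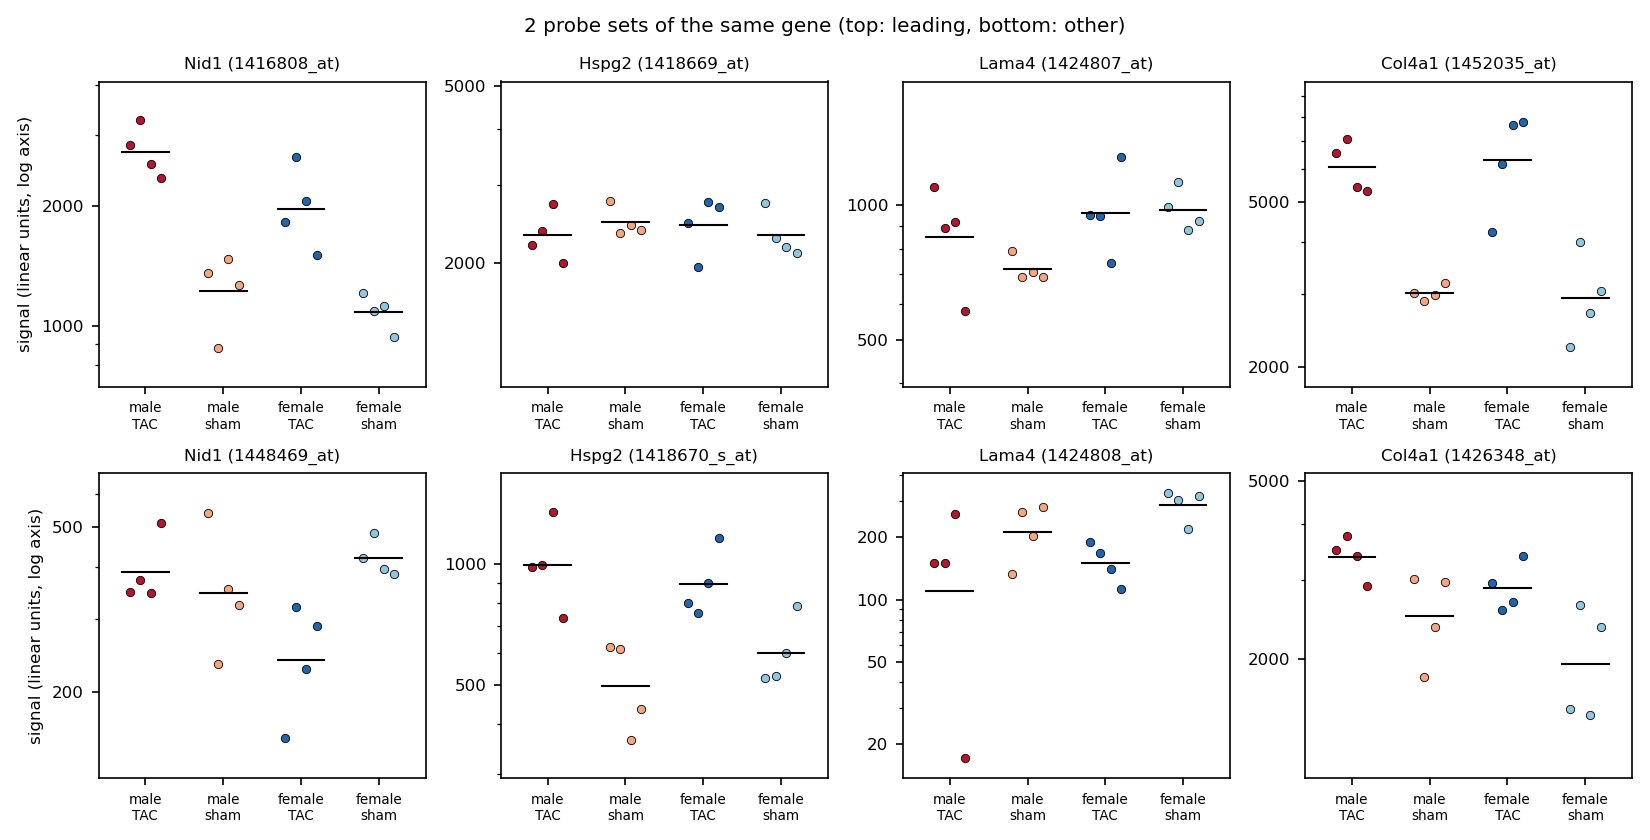
Signals on every array (log axis) of 2 probe sets each of Nid1, Hspg2, Lama4 and Col4a1, the leading one on top; points are arrays and lines are group means of log2(signal + 16), turned back to signal. On the leading Nid1 probe set both TAC groups lie above sham, and on the lower one female TAC lies below female sham.

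The changes were also counted array by array. Of the 10 leading probe sets, 6 to 9 were above every male sham array on each male TAC array, against 24.0% to 29.7% of the 8272 tested genes' leading probe sets. On each female TAC array 5 or 6 were above every female sham array, against 24.3% to 26.1%. Male TAC 4 stood highest with 9, all except Hspg2, and female TAC 1 lowest with 5. Groups without overlap, TAC above sham, made 6 of the 16 tested probe sets in males and 4 in females, against 8.75% and 8.29% of all tested probe sets.

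The responses of the sexes to constriction did not differ past the threshold for any of the 16 probe sets. In limma's interaction test, 0 of the 16 probe sets and 0 of all 13576 (0%) had an adjusted p below 0.05, with 1 and 897 at an unadjusted p below 0.05. Calls were shared by both sexes for 4 probe sets, made in males alone for 2 and in females alone for 2. The female ones were a rise of the second Col4a1 probe set and a fall of the second Nid1 probe set. Of all tested probe sets, 17.8% were called in males and 15.1% in females, and the share called in both is not given here. The difference behind a call in 1 sex alone was not past the threshold. The second Nid1 probe set was the 1 with an unadjusted p below 0.05, with a female response minus male response of -0.93 on the log2 scale (unadjusted p = 0.0115, limma adjusted p = 0.661). Between females and males within TAC, 0 of the 16 probe sets passed, against 0.0663% of all. At an unadjusted p below 0.05 there were 874 of all 13576 and 2 of the 16. Both were of Nid1, at -0.47 for the leading probe set (limma adjusted p = 0.709) and -0.66 for the other (adjusted p = 0.708). Within sham, 0 passed, against 0.309% of all, with 1424 of all 13576 and 2 of the 16 at an unadjusted p below 0.05. One of the 2, the leading Lama4 probe set, was higher on every female sham array than on any male sham array. The same held for 3.59% of all tested probe sets. Its log2 difference was 0.43 (limma adjusted p = 0.392). The other, Lamb1 probe set 1424113_at, was higher in female sham by 0.52 (limma adjusted p = 0.404).

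Of 18 other components of the basement membrane tested, 3 rose and 2 fell over both sexes, beside the 12.9% and 15.8% of all tested probe sets that did, with a median log2 fold change of -0.08, against 5 of the 10 leading probe sets and a median of 0.57 for the genes described above and -0.03 for all probe sets. Sparc, a protein that binds collagen, rose by 0.94 (limma adjusted p = 8.47e-07), and Fbln2, a fibulin that binds nidogen and perlecan, rose by 0.57 (adjusted p = 0.00095). Lamb3, a beta chain of epithelial laminin, fell by 0.66 (limma adjusted p = 0.0296), and Ntn1, a laminin-related guidance protein, fell by 0.32 (adjusted p = 0.0377). Smoc2 rose by 0.29 on its leading probe set (limma adjusted p = 0.0403) and fell by 0.60 on another (adjusted p = 0.0179). Col4a5, a chain of another type IV collagen, was at 0.28 (limma adjusted p = 0.061).

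Among 19 receptors of laminin and collagen, 1 rose and 5 fell over both sexes, beside 12.9% and 15.8% of all tested probe sets. Their median was -0.09. Itgb1, the beta chain of most matrix-binding integrins, fell by 0.99 on its leading probe set (limma adjusted p = 3.31e-05). The sarcoglycans Sgcb, Sgca and Sgce, membrane proteins of the complex that ties dystrophin to laminin, fell by 0.52, 0.43 and 0.42 (limma adjusted p = 0.000292, 0.000461 and 0.0126). Bcam, a laminin receptor, fell by 0.36, and Gpc1, a heparan sulfate proteoglycan of the cell surface, rose by 0.26 (limma adjusted p = 0.0117 and 0.0313).

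Of 17 genes that fold, modify or export collagen and laminin chains, 7 rose and 1 fell over both sexes. Their median was 0.21, and of all tested probe sets 12.9% rose and 15.8% fell. Serpinh1, the collagen chaperone of the endoplasmic reticulum, rose by 0.77 (limma adjusted p = 8.68e-06). The prolyl hydroxylase chains P4ha1, P4ha2 and P4hb rose by 0.87, 0.53 and 0.23, and the prolyl isomerase Ppib rose by 0.70 (limma adjusted p = 7.63e-06, 0.000922, 0.0336 and 3.86e-06). Pomt1, which starts the sugar chains of dystroglycan, fell by 0.86 (limma adjusted p = 0.0251).

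Of 10 proteases that can cut basement membrane, 5 rose and 1 fell over both sexes, beside 12.9% and 15.8% of all tested probe sets. Their median was 0.51. Mmp2, a type IV collagenase, rose by 1.02, and its membrane-bound activator Mmp14 rose by 0.98 (limma adjusted p = 3.23e-07 and 0.000396). Ctss, a lysosomal protease of macrophages, rose by 0.80, Adamts1 by 0.70 and Bmp1 by 1.18 (limma adjusted p = 2.37e-05, 0.0111 and 0.0278). Mmp9, another type IV collagenase, fell by 0.57 (limma adjusted p = 0.0225).

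The fibrillar collagens of interstitial scar, the most similar family, moved further. Of 7 tested, 6 rose over both sexes and 0 fell, beside 12.9% and 15.8% of all tested probe sets, with a median of 1.43. Col5a2 rose by 1.96, Col1a2 by 1.91, Col1a1 by 1.44 and Col3a1 by 1.43 (limma adjusted p = 2.98e-08, 2.41e-08, 1.39e-06 and 2.92e-08). Col5a1 rose by 1.24 and Col5a3 by 0.57 (limma adjusted p = 1.04e-06 and 0.011). Col4a1 at 1.05 and Nid1 at 0.998, the largest averaged values among the 10 genes' leading probe sets, lay below those of Col5a2, Col1a2, Col1a1, Col3a1 and Col5a1. The difference between the families was not tested.

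**Figure D4:**
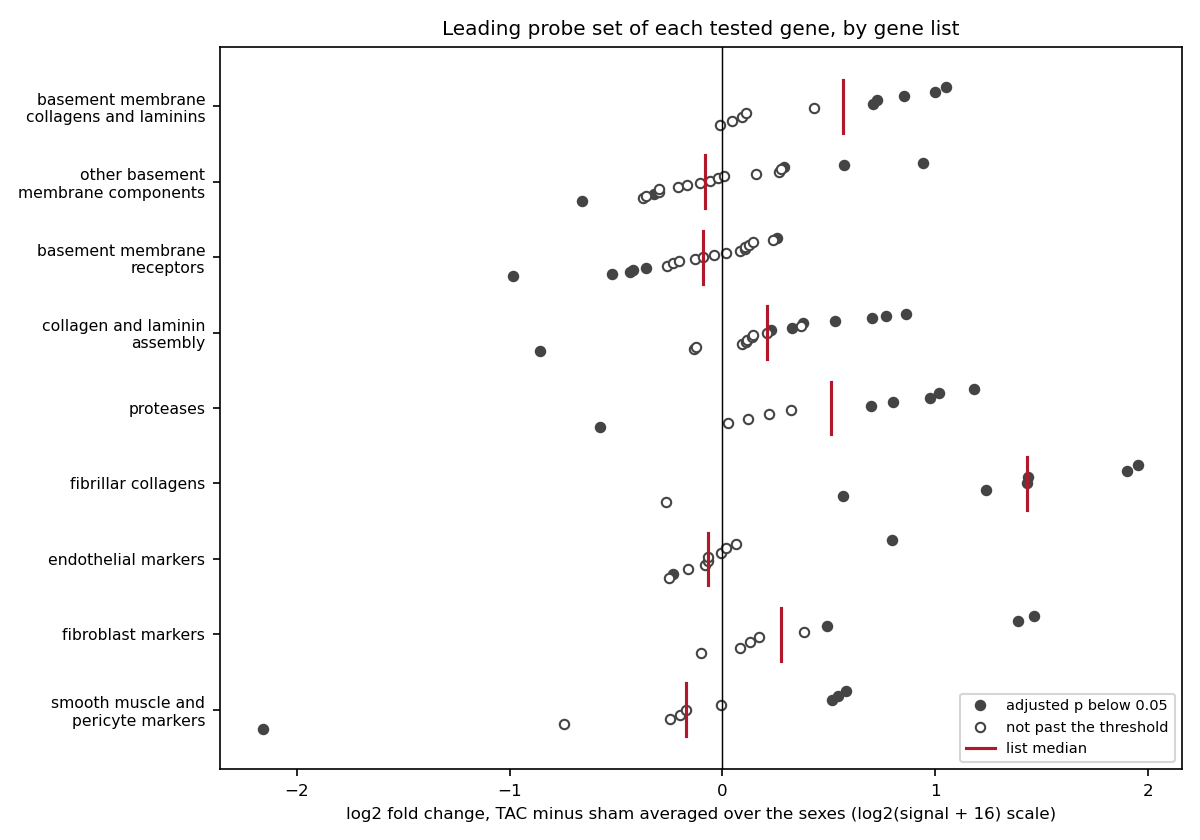
Log2 fold change, TAC minus sham averaged over the sexes, of the leading probe set of each tested gene in the listed families; filled points passed adjusted p below 0.05 in limma and red lines are medians. The basement membrane collagens and laminins have a median of 0.57, between 1.43 for fibrillar collagens and -0.08 for other basement membrane components.

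The cells that make basement membrane were followed by marker genes. Beside the marker counts that follow, 12.9% of all tested probe sets rose and 15.8% fell over both sexes. The shares were 8.07% and 9.77% in males, and 6.46% and 8.6% in females. Of 10 endothelial markers, 1 rose and 1 fell over both sexes, with a median of -0.07. Vwf rose by 0.80 and Fabp4 fell by 0.23 (limma adjusted p = 0.0269 and 0.0208). The summed endothelial signal was 18616 to 23758 in male TAC and 23733 to 26649 in male sham, and 22097 to 27304 in female TAC and 24903 to 27451 in female sham. Most of that sum was Fabp4: the other 9 markers summed to 6434 to 8246 in male TAC and 7541 to 8406 in male sham, and to 8432 to 8806 in female TAC and 7947 to 9197 in female sham. Fibroblast markers rose for 3 of 8 over both sexes, for 4 in males (median 0.60) and for 2 in females (median 0.05). For 0 of the 8 did the responses of the sexes differ past the threshold. Fibroblast sums were 15769 to 23287 in male TAC and 14390 to 16642 in male sham, and 15986 to 19144 in female TAC and 16163 to 17910 in female sham. Smooth muscle and pericyte markers rose for 3 of 9 and fell for 1 over both sexes, with 3 and 1 in males and 1 and 2 in females. Over both sexes Pdgfrb rose by 0.58, Tagln by 0.54 and Des by 0.52 (limma adjusted p = 0.000422, 0.0144 and 0.000277). Abcc9 fell by 2.16 (limma adjusted p = 1.25e-09). Which cells these transcripts came from was not tested. Macrophage markers rose for 5 of 7 over both sexes, for 4 in males and for 1 in females, and 0 differed in response between the sexes past the threshold. All 7 cardiomyocyte markers fell over both sexes, with a median of -0.35, and 5 fell in males and 7 in females. Apart from the RNA covariates, 2 to 7 cardiomyocyte markers fell over both sexes under the alternative settings. Over both sexes with the Gapdh covariate, 1 cardiomyocyte marker fell, 1 macrophage marker rose and 0 fibroblast markers rose. With the 18S covariate, 2, 2 and 2 did. The cardiomyocyte sum was 201512 to 237460 in male TAC and 245863 to 297433 in male sham, and 173958 to 214288 in female TAC and 252543 to 274343 in female sham. Of the Schwann cell, mesothelial, epithelial and adipocyte markers, 3 were above the limit on dim signals, and 0 of these passed in limma, with 0 at an unadjusted p below 0.05. None of the listed markers was at 0 in any group, and the part of cell composition in the collagen and nidogen changes was not tested.

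Across the 16 arrays, after each group's mean was removed, the genes whose signal followed that of Col4a1 most closely among 8271 were Igfbp7 (Pearson r = 0.908), Thoc6 (0.865), Svep1 (0.853), Msra (0.85) and Ace (0.847). Col4a2 correlated with Col4a1 at r = 0.566 (permutation p = 0.0402, Benjamini-Hochberg 0.335 over 9 genes) and Spearman's rho = 0.644 (permutation p = 0.0199, adjusted 0.179). Without the 2 arrays farthest from the median of Col4a1, female TAC 1 and female sham 2, r was 0.51. The value was 0.763 within TAC arrays and 0.184 within sham arrays, and Col4a2 ranked 292 among the 8271 genes. Among the other 8 genes, r with Col4a1 ran from -0.178 for Lama2 to 0.519 for Col18a1, and none passed after adjustment. Without the same 2 arrays these were -0.381 and 0.174, so the Col18a1 value rests on those arrays.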

How the data were processed

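Left ventricular RNA of 16 mice was hybridised to 16 single-colour arrays, 4 per group. Per the submitters' processing notes, the authors computed a signal intensity per probe set with GCOS; its version and settings are not given in the sources used here. The deposited intensities are linear and were already scaled: the mean after trimming 2% at each end was 500.21 to 500.25 on all arrays, and this scaling was kept. Detection calls were not used. Precision is limited by how many arrays there are.

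The 64 controls and the dimmest 40% of the rest were dropped, by mean log2(signal + 16), a limit at a signal of 130.8, leaving 13576 probe sets. limma 3.58.1 in R 4.3.3 fitted 4 group means over the 16 arrays, with empirical Bayes moderation along the intensity trend. Tests were 2-sided, with Benjamini-Hochberg adjustment over all 13576, so every adjusted p in the text comes from a fit across all probe sets. Tested on data simulated for male TAC against male sham over 13576 probe sets, the fit recovered 28.6% of 49 changes of 1.5-fold. It recovered 67.3% of 49 of 2-fold and 93.3% of 45 of 3-fold, with 6 false calls. Noise in the simulation was independent between probe sets, and far fewer were changed than the 2422 called in males. The adjusted p depends on how many probe sets change, so these recovery shares do not carry over to the tests above. Names came from the platform annotation, with 20380 probe sets of exactly 1 symbol. Replicates are arrays of separate animals.

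All probe sets of the 10 genes are named or counted. In the related lists, up to 6 genes with the smallest p of the averaged comparison are named, on their leading probe sets. Of these genes, another probe set is given for Smoc2 alone. Of genes like Col4a1, the 5 with the highest r are named. The members and lists were chosen with earlier results of these data known. Alternatives covered scaling, pseudocount, filter, trend, array weights, 1 probe set per gene, replicate block, RNA covariates and each array left out.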

Additional observations from a re-analysis of the deposited data

Results flagged for a closer look

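In Lama2 (1426285_at), female sham 1 stood apart from its group, with a signal of 2259 against 1519 to 1597 on the other female sham arrays, and its gap to the nearest array was 0.874 of the group's log2 range. In the dim Lamc1 probe set 1423886_at, female TAC 5 stood apart, with 82.3 against 24.6 to 30.3 on the other female TAC arrays, a gap of 0.851 of the range. Both were the highest array of their group. Chance gives such a gap in about 1 of 20 groups, and 72 groups were looked at.

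The second Nid1 probe set, 1448469_at, was picked out because no male TAC array lay below the male sham mean of log2(signal + 16) and every female TAC array lay below the female one. The margin was small in males, where male TAC 1 was 0.003 above the mean and male TAC 4 level with it to 3 decimals, and on the linear scale both lay below it. The female response minus the male response was -0.927 on the log2 scale (95% interval -1.62 to -0.23), and it did not pass adjustment (limma adjusted p = 0.661). The leading Nid1 probe set rose in both sexes.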

How the results depend on the processing

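The counts of the 10 genes' probe sets past the threshold were 6 in males, 6 in females and 9 over both sexes. Of all tested probe sets, 17.8%, 15.1% and 28.7% passed. Leaving out each array in turn gave 6 to 7 in males, 4 to 7 in females and 8 to 9 over both sexes. The shares of all tested probe sets were then 13.3% to 16.3%, 11.9% to 13.5% and 25.9% to 28.2%. Leaving out arrays gave 0 of the 10 genes' probe sets for the interaction and for both comparisons between the sexes. A Gapdh 3'/5' covariate gave counts of 0, 0 and 1, and an 18S covariate gave 3 in males and 5 over both sexes; both measures move with the operation. With 1 probe set per gene, which leaves 10 to test, 5 passed over both sexes, against 25.8% of all 8272. No clear pairing by the numbers of the array labels was seen. Deviations of 19 same-numbered pairs of arrays correlated at -0.035 to 0.115 (median 0.011), against -0.125 to 0.128 (median -0.006) for 77 other pairs. Outside their own group, 3 of 16 arrays matched an array of their own number best. With so few pairs, a weak pairing would not show. With the replicate block, 7, 7 and 8 probe sets passed in males, in females and over both sexes, and 0 in the other comparisons. Of all tested probe sets, 15.4% then passed in males, 12.9% in females and 24.7% over both sexes.

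Of 697 values of leading probe sets under the alternatives, 632 kept their direction and side of the threshold, 15 lost the call, 12 gained it and 38 changed sign, and 0 of those 38 were called in either fit. All 15 losses were with the Gapdh or the 18S covariate, and all 12 gains were of the leading Lamb1 probe set. The cause of these changes was not tested. Leaving out arrays gave log2 fold changes in females of -0.137 to 0.566 for Col18a1, -0.05 to 0.143 for Lama2 and -0.154 to 0.104 for Lama4. It gave -0.279 to 0.116 for Lamc1 in males, and over both sexes -0.066 to 0.131 for Lamc1 and -0.049 to 0.042 for Hspg2. The other sign changes were these. With the Gapdh covariate, Col18a1 in females was -0.076, Lama4 over both sexes -0.025, Lamb1 in males -0.011, Lamc1 in males 0.034, and Hspg2 0.259 in males and 0.289 over both sexes. With the 18S covariate, Lama2 in females was -0.023, Lama4 -0.187 in males and -0.226 over both sexes, Lamc1 -0.202 in females and -0.426 over both sexes, and Hspg2 in females -0.028. Median centring gave 0.097 for Lama4 in females, 0.004 for Lamc1 in males and 0.076 for Hspg2 over both sexes. Quantile normalization gave -0.028 for Lama2 in females, array weights 0.022 for Lama4 in females, and the replicate block 0.006 for Hspg2 over both sexes.

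Apart from the RNA covariates, the alternatives gave 2 to 5 other basement membrane components risen and 0 to 2 fallen over both sexes, and 0 to 2 receptors risen and 4 to 6 fallen. Of the assembly genes 4 to 7 rose, of the proteases 4 to 6, and of the fibrillar collagens 6. With the Gapdh covariate, 3 assembly genes, 1 protease and 4 fibrillar collagens rose, 0 receptors fell, and of the other components 0 rose and 0 fell.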
